A study of Mus musculus with 2 samples.

Results

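Msx1, Msx2, Barx1, Barx2, Osr1 and Osr2 are 3 pairs of related transcription factor genes. They were grouped as regulators of tooth and palate mesenchyme and taken by symbol, though not all are best known from that tissue. The rule used no measured value, but the set was chosen with earlier results of these data known. They are 6 of the 43346 annotated genes and account for 8 of the 103639 annotated transcripts in the deposited tables. Their levels were measured by total RNA sequencing of the facial prominences, the paired swellings around the primitive mouth, of mouse embryos of strain B6NCrl at 11.5 days. The study has 1 group of 2 libraries, made from separate pools of embryos of mixed sex. Library 1 came from 109 embryos and library 2 from 88, and each was made from 10 ng of RNA above 200 nt with spike-in RNA added, per the labels. No treatment, mutant or other age was set against these libraries, so the values describe how much RNA of each gene was present and how far the pools differed. Since each library averages whole pooled prominences, no value can be placed in the upper or lower jaw, or in ectoderm or mesenchyme.

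The Msx proteins are homeodomain repressors. In facial mesenchyme they are induced by BMP signals from the ectoderm and in turn maintain Bmp4 there, and mice without Msx1 have a cleft palate and arrested tooth buds. Barx1 is a homeobox gene of the mesenchyme at molar positions, induced by FGF8 and held back by BMP4, and its relative Barx2 is known from oral ectoderm and developing muscle. Osr1 and Osr2 encode zinc finger proteins related to the Drosophila gene odd-skipped. Osr2 is needed for growth of the palatal shelves and restricts the field in which teeth form, while Osr1 is best known from heart, kidney and tongue.

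The members of each pair share the domain that binds DNA, and the coding sequence of that domain was compared because it is where reads of a pair could be confused. Sequences are from the GENCODE M21 transcripts on mm10. Each Msx homeobox lies within the second exon, in coding sequence on the minus strand. They share 148 of 180 bases and encode 58 of 60 identical residues.

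The Barx homeoboxes are each split over 3 exons, within chr13:48665226-48665830 on the plus strand for Barx1 and within chr9:31847053-31858822 on the minus strand for Barx2. They share 139 of 180 bases and 52 of 60 residues, the lowest identity of the 3 pairs in this domain. This most divergent pair is shown 5′ to 3′, with capitals for each base that differs from the paralog.
Barx1: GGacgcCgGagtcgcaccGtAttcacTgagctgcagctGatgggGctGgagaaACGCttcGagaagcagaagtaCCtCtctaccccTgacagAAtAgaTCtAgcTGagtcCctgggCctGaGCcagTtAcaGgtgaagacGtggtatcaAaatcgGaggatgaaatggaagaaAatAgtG
Barx2: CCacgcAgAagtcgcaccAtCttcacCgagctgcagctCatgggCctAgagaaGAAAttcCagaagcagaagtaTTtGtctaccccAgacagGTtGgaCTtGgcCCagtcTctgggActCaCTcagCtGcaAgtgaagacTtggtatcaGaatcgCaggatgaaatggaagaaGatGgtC

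In the Osr pair 3 zinc fingers were found in each protein, coded in 2 exons on the plus strand in both genes. All 77 residues from the first to the last finger are identical, while 44 of 231 bases and 41 codons differ. Every base difference in this stretch is therefore silent.

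Outside these domains the pairs diverge more. Over the full proteins of 1 model per gene, identity was 55.9% for Msx1 and Msx2, 38.8% for Barx1 and Barx2 and 63.7% for Osr1 and Osr2. The longest stretch that the spliced transcripts of a pair have in common was 22 nt for Msx, 17 nt for Barx and 23 nt for Osr. The deposited effective lengths lie 99 nt below the transcript lengths, which corresponds to a fragment of 100 nt. No 100 nt word of the 8 transcripts occurred in the transcripts of any other annotated gene on either strand. The deposited posterior SD of the gene count was 0 for all 6 genes in both libraries, so that no read was divided between a member and another gene. Of 3 genes annotated close by, 1 was quantified: 1700022H16Rik, which overlaps the annotated start of Osr1 on the opposite strand, had no count in either library. Gm31497, which lies within an intron of Barx2 on the opposite strand, and BC048602, whose nearer end lies 3700 bp from Osr2, have no entry in the deposited tables.

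Msx1 was by far the most abundant of the 6 genes. Levels are in TPM, a unit that corrects for transcript length and depth and so can be compared between genes. Msx1 (ENSMUSG00000048450.10, chromosome 5, 37820485 to 37824583) stood at 278 TPM in library 1 and 248 in library 2, from 10446 and 9503 counts. Its mean of 263 ± 20.9 (SD, n = 2) was 76.3 times the median of protein-coding genes (3.45 TPM) and ranked 492 of 21474. Msx1 alone held 64.4% of the summed TPM of the 6 genes in library 1 and 56.3% in library 2.

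Barx1 followed as the second member and was the one whose libraries lay farthest apart in TPM. It (ENSMUSG00000021381.4, chromosome 13, 48662998 to 48666507) had 56.7 TPM in library 1 and 105 in library 2, from 1510 and 2846 counts, a mean of 80.8 ± 34.1. Even the lower of these values was above both libraries of every remaining gene, and the higher was below both libraries of Msx1. By mean TPM Barx1 ranked 1827 among protein-coding genes.

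Osr2, Osr1 and Msx2 formed a middle tier whose order was not resolved. Osr2 (ENSMUSG00000022330.4, chromosome 15, 35296098 to 35303305) had 35.3 TPM in library 1 and 30.1 in library 2, a mean of 32.7 ± 3.66. Osr1 (ENSMUSG00000048387.7, transcript at chromosome 12, 9574441 to 9581500) had 30.3 and 33.5 TPM, a mean of 31.9 ± 2.26. Msx2 (ENSMUSG00000021469.9, chromosome 13, 53466884 to 53473074) had 31.2 and 23.5 TPM, a mean of 27.3 ± 5.44. The libraries of Osr2 overlapped those of Osr1, and those of Osr1 overlapped those of Msx2. All of them stood well above the protein-coding median, at ranks 4262, 4356 and 4850.

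Barx2 was the only member near the limit of detection. It (ENSMUSG00000032033.11, chromosome 9, 31846044 to 31913462) had 21 counts in library 1 and 40 in library 2. This is 0.55 TPM in library 1, with an exact 95% Poisson interval of 0.341 to 0.841, and 1.03 TPM in library 2, with an interval of 0.736 to 1.40. The 2 intervals overlap, and that of library 2 reaches to both sides of 1 TPM. With a threshold of 1 TPM in both libraries, 5 of the 6 genes were detected, beside 58.5% of protein-coding genes and 32.0% of all annotated genes.

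**Figure D1:**
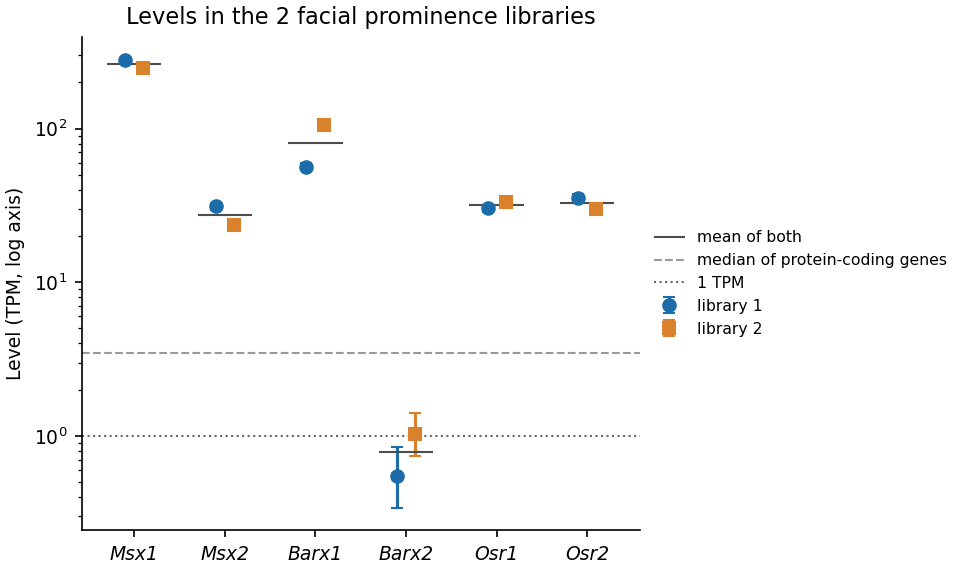
Level of each gene in TPM on a log axis, with circles for library 1, squares for library 2, bars for the exact 95% Poisson interval of the count and a line for the mean of both. Msx1 lies at 248 to 278 TPM, Barx1 at 56.7 and 105, Osr1, Osr2 and Msx2 together between 23.5 and 35.3, and Barx2 around the dotted line at 1 TPM.

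Within each pair the balance of the paralogs was taken inside a library, where the scaling between libraries plays no part. Msx1 exceeded Msx2 8.91-fold in library 1 (95% counting interval 8.44 to 9.41) and 10.6-fold in library 2 (9.95 to 11.2). From library 1 to library 2 the Msx1 to Msx2 ratio thus shifted 1.19-fold, with an exact conditional interval of 1.10 to 1.29. That shift is larger than counting error, but smaller than the 1.48-fold that counting error and the usual spread between these pools give together.

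Barx1 exceeded Barx2 103-fold in library 1 (67.4 to 168) and 102-fold in library 2 (74.9 to 144). Both genes were higher in library 2, and the ratio between them shifted 0.990-fold, with an interval of 0.552 to 1.73. The interval is wide because Barx2 has few counts, and counting error and the spread between the pools together allow 1.93-fold.

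The Osr pair was near balance and changed its order between the libraries. In library 1 Osr2 was 1.17-fold above Osr1 (1.07 to 1.26), and in library 2 Osr1 was 1.11-fold above Osr2 (1.02 to 1.21). The ratio shifted 1.30-fold (1.15 to 1.46), which exceeds counting error, while the spread between the pools allows 1.49-fold. Neither paralog can therefore be placed above the other from these libraries.

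**Figure D2:**
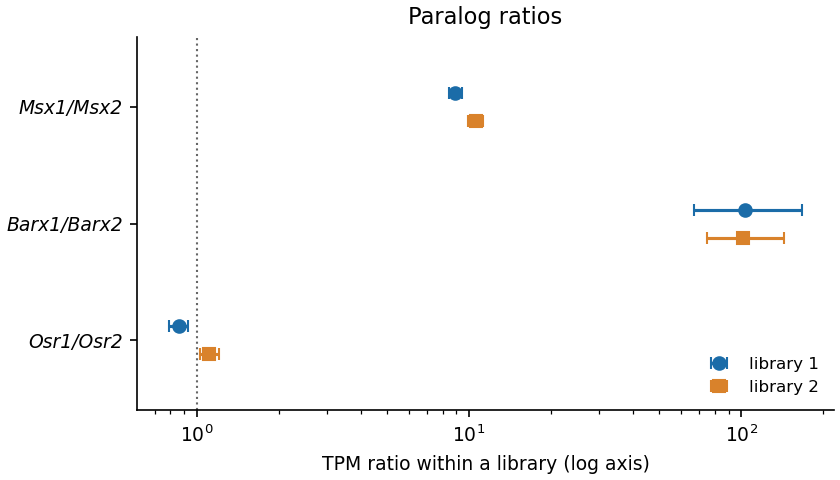
TPM ratio of the paralogs within each library on a log axis, with bars for the exact 95% counting interval. Msx1/Msx2 lies at 8.91 and 10.6, Barx1/Barx2 at 103 and 102 with wide overlapping bars, and Osr1/Osr2 on either side of 1, at 0.859 and 1.11.

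The transcript tables hold a second model only for the Msx genes, and both second models keep the start of the intron. Msx1 and Msx2 are each spliced from 2 exons, with introns of 2164 and 3738 nt. Msx1-202 ends 1162 nt inside its intron and Msx2-202 826 nt inside, without reaching exon 2, so that neither includes the homeobox. The bases at the boundary show what tells the forms apart, with 30 nt of exon 1 in lower case and the 30 nt that come next in capitals. The last base of exon 1 is position 37823865 of chromosome 5 for Msx1 and position 53472332 of chromosome 13 for Msx2, both minus strand and inside coding sequence, and the retained forms continue with a GT splice donor.
Msx1-201, spliced: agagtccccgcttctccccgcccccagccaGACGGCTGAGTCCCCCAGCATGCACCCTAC
Msx1-202, intron retained: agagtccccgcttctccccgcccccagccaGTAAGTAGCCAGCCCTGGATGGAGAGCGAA
Msx2-201, spliced: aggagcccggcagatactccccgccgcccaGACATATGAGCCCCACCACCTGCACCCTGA
Msx2-202, intron retained: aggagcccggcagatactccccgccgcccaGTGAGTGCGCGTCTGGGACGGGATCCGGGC

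For Msx1 the intron-retaining model took a small and steady share of the gene's TPM. The libraries are of total RNA, and reads of unspliced Msx1 RNA were not told apart from reads of this model. Msx1-202 took 3.92% of the gene's TPM in library 1 and 4.06% in library 2 (mean 3.99% ± 0.0990, n = 2), from 397 and 375 estimated counts. Its own level was 10.9 and 10.1 TPM. The posterior SD of these counts, which covers the division of reads between the 2 models, was 11.8 and 11.2. Among 3662 genes that have such a model and at least 10 TPM, the median share was 4.66%, and 45.9% of them lay below Msx1.

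For Msx2 the share of the intron-retaining model was smaller and rests on few reads, with the same limit on unspliced RNA. Msx2-202 took 0.81% of TPM in library 1 and 1.53% in library 2 (mean 1.17% ± 0.509), from 7.62 and 11.0 estimated counts with a posterior SD of 2.10 and 2.79. In both libraries the share was below that of Msx1, and 20.5% of the 3662 genes lay below Msx2. The dominant model was the spliced one in both libraries for Msx1 and Msx2, while 6.26% of 6226 genes with at least 2 models and 10 TPM had another dominant model in library 2.

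The other 4 genes have 1 model each in the deposited tables, so their IsoPct is 100% by construction. Barx1-201 and Barx2-201 both have 4 exons, but their introns sum to 2111 nt in Barx1 and 65451 nt in Barx2. Osr1-201 has 3 exons and Osr2-201 has 4. GENCODE M21 lists further models of Osr1 and Osr2 that were not quantified, so nothing can be said here of their isoforms.

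**Figure D3:**
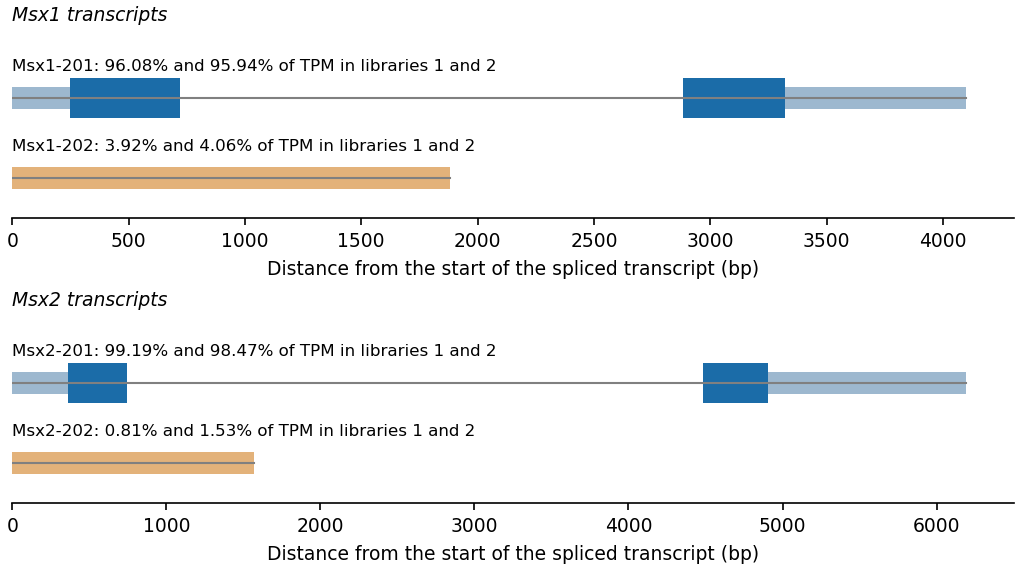
Models of the Msx genes by distance in bp from the start of the spliced transcript, with coding exons dark, untranslated exon parts light blue and the models that retain the start of the intron in orange. The labels give the share of TPM in each library, 3.92% and 4.06% for Msx1-202 and 0.81% and 1.53% for Msx2-202.

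By point estimate the libraries differed most for the Barx genes, but the wide interval of Barx2 includes the fold of Msx2. Ratios between libraries were taken from counts scaled by TMM, and compare these 2 pools, not conditions. In bulk samples fewer cells of a type and less RNA per cell cannot be told apart. Barx1 was 1.89-fold higher in library 2, with a 95% Clopper-Pearson interval of 1.77 to 2.01, and Barx2 1.91-fold higher (1.10 to 3.41). Msx1 was 1.10-fold (1.07 to 1.13), Msx2 1.31-fold (1.21 to 1.41) and Osr2 1.15-fold (1.06 to 1.25) higher in library 1. Osr1 was 1.13-fold (1.04 to 1.22) higher in library 2. Both Barx genes thus leaned the same way, as did both Msx genes, while the Osr genes leaned apart.

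These intervals hold counting error alone and are narrow for well-counted genes. All 6 members had an interval that excludes 1, with 3 higher in library 2 and 3 lower, but so did 21.2% and 18.8% of all 16671 genes with at least 20 counts. A second rule added the spread between libraries, a coefficient of variation of 9.79% from edgeR's common dispersion. By this rule 2 of 6 members, Barx1 and Barx2, were higher in library 2 beyond the spread, beside 3.16% of all genes tested. No member was lower beyond it, beside 5.05% of all genes. For Barx1 the spread allows 1.32-fold, and its 1.89-fold lay 4.47 SDs of that spread from no difference. Barx2 lay at 2.11 SDs, where 1.81-fold is allowed, and Msx2 lay just short of the limit at -1.85.

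The outcomes for Barx2 and Msx2 do not hold with every choice of spread and scaling. EdgeR's trended dispersion allows genes of few counts a wider spread. With it Barx2 lay at 1.56 SDs and was not beyond it, while Msx2 lay at -2.25 and was. Msx2 was also lower beyond the spread with total counts on genes (-2.02) and with spike-ins (-2.16), but not with size factors of DESeq2 (-1.865). With DESeq2's median gene-wise dispersion Msx2 lay at -4.63, and every other member was beyond the spread too. Barx1 was beyond the spread under each of the 5 alternatives of scaling and dispersion.

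Among 8606 genes with at least 1000 counts, 11 (0.128%) differed between the libraries by as much as Barx1, itself included. Named here after their values were seen, those higher in library 2 were Cdk2ap1 (2.20-fold), the muscle actin gene Actc1 (2.05-fold), Sppl3 (1.94-fold) and Dlx6os1 (1.90-fold), an RNA antisense to Dlx6. Higher in library 1 were the lens crystallin gene Cryaa (8.99-fold), Aldh1a1 (2.78-fold), the pigment cell genes Pmel (2.36-fold) and Trpm1 (2.26-fold) and the pseudogenes Gm10925 and Gm10698. For Gm10925 and Gm10698 the posterior SD reached 483% and 17.2% of the count, so these are uncertain.

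**Figure D4:**
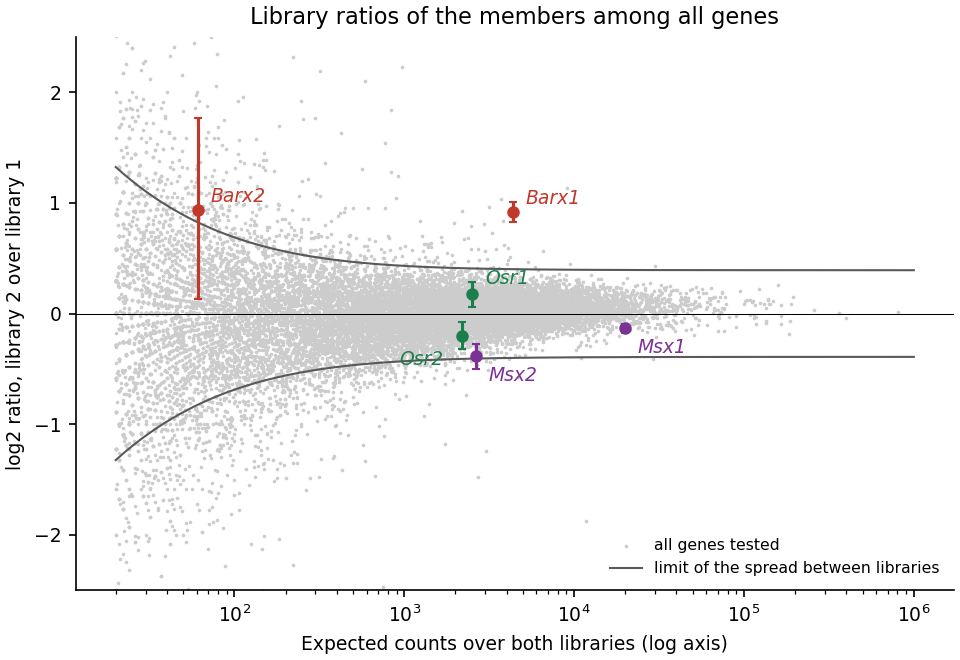
The log2 ratio of library 2 over library 1 against the expected counts over both libraries on a log axis, in grey for all genes tested and in colour with 95% counting intervals for the members. The curves mark the limit of the spread, and Barx1 at 0.92 lies far above them, Barx2 at 0.93 just outside and the other 4 members inside. Genes beyond the axis or with no count in a library (87 in all) are not drawn.

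Markers of other tissues also differed between the pools, and their part in the Barx ratios was not tested. Of all genes tested, 3.16% were higher and 5.05% lower in library 2 beyond the spread, and 21.2% and 18.8% by counting error. At 1 TPM in both libraries, 58.5% of protein-coding genes were detected. These shares stand beside each list count that follows, whether of calls or of detected genes. Of 12 skeletal muscle markers, 7 were higher in library 2 beyond the spread and none lower. Myog, Myod1, Pax7, Pax3 and Chrna1 lay within it. The summed level was 135 TPM in library 1 and 210 in library 2, of which Actc1 alone had 43.3 and 87.0. Of 9 heart markers, 8 were higher in library 2 beyond the spread and Nkx2-5 was not, with sums of 27.3 and 91.5 TPM. Of 8 eye and lens markers, 5 were lower in library 2 beyond the spread and 7 by counting error. None was higher by either rule, and the sums were 230 and 69.4 TPM. The thyroid, lung and forebrain gene Nkx2-1 was 2.42-fold higher in library 2 (2.08 to 2.83) and was the only one of 6 foregut and stomach markers tested beyond the spread. The gut regulators Cdx2 and Hnf4a had no count in either library.

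Markers of facial mesenchyme, in which Msx1 and Barx1 are known, differed less between the libraries than Barx1. All 12 of its markers were detected, at a median of 73.6 TPM, and none of them lay beyond the spread in either direction, while by counting error 3 were higher and 5 lower in library 2. Their summed levels were 1644 and 1566 TPM. Of 12 surface epithelium markers, none was higher and 1 was lower in library 2 beyond the spread, with sums of 303 and 266 TPM, while 7 were lower by counting error. Neuron markers leaned toward library 1: all 10 were lower in library 2 by counting error and 1 beyond the spread, with a median log2 ratio of -0.23 and sums of 739 and 609 TPM. Of 9 endothelium markers, 5 were lower by counting error and 1 beyond the spread, and of 9 erythroid markers 6 were lower by counting error and none beyond the spread. No marker of these 3 lists was higher in library 2 by counting error.

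Most genes in the lists of related roles that follow were detected, but the lists were chosen with earlier results of these data known. Of 18 further genes of tooth mesenchyme, 17 were detected, beside 58.5% of protein-coding genes. The median of the 18 was 14.9 TPM. The WNT antagonist gene Sfrp2 was highest at 140 ± 28.4 TPM, then the heparan sulfate proteoglycan gene Sdc1 (92.8 ± 4.12) and the neural crest regulator Twist1 (64.9 ± 7.23). The activin subunit gene Inhba (3.43 ± 0.0919) and Fgf3, a growth factor gene of later tooth mesenchyme (0.615 ± 0.205), were lowest. Of the 18, 2 were higher in library 2 beyond the spread (Dlx1 and Lhx8) and 1 lower (Sfrp2), so most had no difference past it.

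In the oral and dental epithelium list 13 of 16 genes were detected, at a median of 13.0 TPM. Isl1, a LIM homeobox gene of mandibular epithelium and of neurons, was highest at 49.2 ± 8.08 TPM, then the BMP and WNT antagonist gene Sostdc1 (37.5 ± 1.02). Foxi3 (0.695 ± 0.106) and the ectodysplasin receptor gene Edar (0.490 ± 0.141) were lowest. Fgf8, whose signal induces Barx1, had 15.5 TPM in library 1 and 13.3 in library 2, a ratio of 0.895 (0.754 to 1.06), with no difference beyond counting error. Beyond the spread, 2 of the 16 were higher in library 2 (Shh and Dlx3) and 1 lower (Wnt7b).

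All 18 genes of palate growth and patterning were detected, at a median of 13.5 TPM. The FGF receptor gene Fgfr2 (63.9 ± 9.33 TPM), the ligand gene Wnt5a (50.8 ± 0.608) and Tgfb2 (34.5 ± 8.12) were highest, and Sim2 (2.67 ± 0.339) and the growth factor gene Fgf7 (1.22 ± 0.205) lowest. Osr1 and Osr2, at 31.9 and 32.7 TPM, stood close to Tgfb2 in level. Beyond the spread, 1 of the 18 was higher in library 2 (Meox2) and 1 lower.

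Of 19 BMP pathway genes 17 were detected, at a median of 9.74 TPM. The BMP target genes Id3 (476 ± 25.9 TPM), Id2 (431 ± 12.4) and Id1 (130 ± 6.84) were highest, and the receptor effector gene Smad9 (0.895 ± 0.0354) and the antagonist gene Grem1 (0.840 ± 0.339) lowest. Bmp4, which induces Msx1 and holds back Barx1, had 17.1 TPM in library 1 and 13.4 in library 2. Its ratio of 0.829 (0.736 to 0.934) excludes 1 by counting error and lay within the spread, at -1.24 SDs. Beyond the spread, Smad4 was higher and Grem1 lower in library 2.

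Regulators of position in the first arch leaned toward library 2. All 16 were detected, at a median of 8.02 TPM and a median log2 ratio of 0.20, against 0.0022 over all genes tested. By counting error 10 of 16 were higher and 1 lower in library 2, beside 21.2% and 18.8% of all genes tested. Beyond the spread 3 were higher (Lhx8, Dlx3 and Pou3f3) and 1 lower (Hand1, a gene of the distal mandible), beside 3.16% and 5.05%. Lhx8 was also counted in the tooth mesenchyme list, and Dlx3 in the oral and dental epithelium list. Lhx8 of the oral mesenchyme was highest at 48.3 ± 9.43 TPM, then Dlx5 (44.5 ± 4.86) and the endothelin receptor gene Ednra (43.1 ± 3.35). Nkx3-2, a gene of the jaw joint (1.53 ± 0.233), and the ligand gene Edn1 (1.19 ± 0.262) were lowest. The list's median ratio was below the 0.92 of Barx1, and none of its members differed by as much as Barx1.

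**Figure D5:**
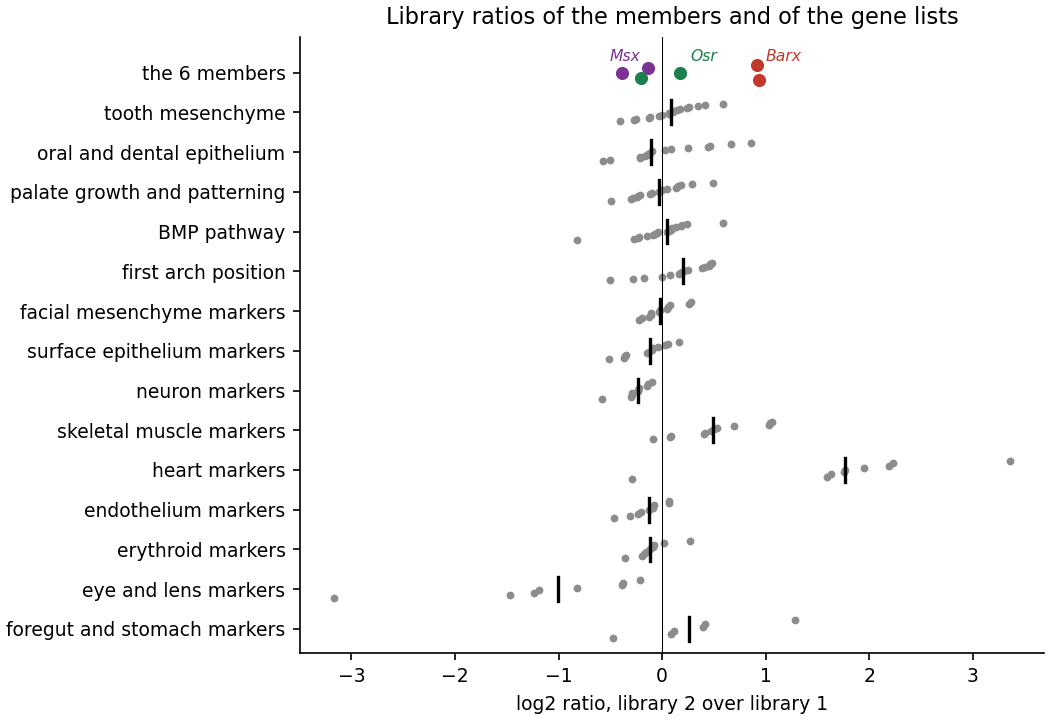
The log2 ratio of library 2 over library 1 for the members (coloured) and for each gene of the lists (grey, with a black line at the list's median). The Barx genes lie at 0.92 and 0.93, apart from the other members between -0.38 and 0.17, and heart and skeletal muscle markers lie to the right, eye and lens markers to the left.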

How the data were processed

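Each library was quantified by the authors against GENCODE M4 on mm10 from an alignment to the transcriptome, per the notes deposited with the files. The aligner, quantifier and strandedness are not given in the sources used here. The deposited expected counts are, per the file headers, estimated reads per gene or transcript, and the deposited TPM is over all entries, spike-ins included. IsoPct in the deposited files is a transcript's percent of the TPM of its gene. The posterior SDs of counts are the authors' deposited values, in reads. Library 1 held 30849058 counts and library 2 held 31600302, of which 7.20% and 7.34% were spike-ins.

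Symbols and positions came from GENCODE M21, also on mm10, matched without version (98.0% of genes). Expected counts were rounded for TMM and dispersion (edgeR 4.0.16, intercept alone, 15986 genes, R 4.3.3) and, as an alternative, DESeq2 1.42.0. Library ratios are library 2 over library 1 for genes with at least 20 counts over both. A ratio was called by its exact 95% Clopper-Pearson interval, or where the log ratio, with a prior count of 0.5, left the 95% range given by counting error and the common dispersion together. Intervals cover counting error only and leave out the spread between libraries. PCR copies of a molecule could not be told from separate molecules, so the intervals may be too narrow even for counting error. The code was tested on simulated data. Homeoboxes were located by the conserved tryptophan of the recognition helix, zinc fingers by the spacing of cysteines and histidines. No test between groups was made. The libraries were not copies of each other (over 18131 genes the chi-square was 8.35 times its degrees of freedom).

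Named were the 6 members, their transcripts, annotated genes within 5 kb and, from each pathway list, the 3 highest and 2 lowest genes by mean TPM. Genes beyond the spread and those with a known link to a member were also named, after their values were seen. With 2 libraries a pattern is 1 ratio, so no gene of most alike pattern was sought. The members and lists were chosen with earlier results of these data known. Some list genes and domain sequences are not reported here.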

Additional observations from a re-analysis of the deposited data

How the results depend on the processing

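Of 126 recomputed values, 109 were kept and no called value reversed. For a library ratio, kept means the same direction and side of the threshold. For a level, paralog ratio or transcript share it means a move within the SD of the 2 libraries. For a number or percent of genes it means a change within a set fold. A single library always lies within the SD of 2, so leaving out a library could not fail for a level, paralog ratio or transcript share. Posterior mean counts could not change a library ratio, because the posterior SD of the gene counts was 0. Protein-coding transcripts alone could not change the Barx and Osr ratios, as these genes have 1 model each. The number of members detected rose from 5 to 6 at 0.5 TPM or without library 1. This counted as kept, and with 6 members a rise could not fail. The order within the Osr pair, which was not resolved, did change: Osr1/Osr2 was 0.985 as the mean of both libraries, 0.859 without library 2, 1.11 without library 1 and 1.16 from counts without length correction. No paired analysis was possible because there is 1 group. Without length correction the counts gave a ratio of 7.63 for Msx1/Msx2 and 71.5 for Barx1/Barx2, and posterior mean TPM gave 99.3 for Barx1/Barx2. TPM over mouse genes alone removed the spike-ins' 15.4% and 15.8% of TPM and raised Msx1 to 312, Osr1 to 37.8 and Osr2 to 38.7. Osr1 scaled by spike-ins had a library ratio of 1.08, no longer beyond counting error. In SDs of the spread, Msx2 lay at -2.02 with total counts on genes, -2.16 with spike-ins and -2.25 with the trended dispersion, all past the threshold, and Barx2 at 1.56 with the trended dispersion, short of it. DESeq2's median gene-wise dispersion put the spread at 2.98% in place of 9.79%, and then Msx1 (-2.09), Msx2 (-4.63), Osr1 (2.07) and Osr2 (-2.31) also lay beyond it. With at least 100 counts, 2.03% of genes were higher in library 2 beyond the spread. Leaving out a library leaves the level, paralog ratio and share of the other one, and no ratio between libraries. Barx2 and Msx2-202 rest on few counts.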

Other observations

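Msx3, the remaining mouse gene of the Msx family and known from the dorsal neural tube, was low but present. It (chromosome 7, 140046157 to 140049089) had 1.92 TPM in library 1 (exact 95% Poisson interval 1.53 to 2.38) and 2.91 TPM in library 2 (2.42 to 3.47), from 84 and 124 counts. Its ratio of 1.48 toward library 2 (1.11 to 1.97) was opposite in direction to those of Msx1 and Msx2, and at 1.97 SDs it lay at the limit of the spread, where 1.47-fold is allowed. Its dominant transcript differed between the libraries, with Msx3-201 at 57.6% of TPM in library 1 and 25.9% in library 2, and Msx3-202 at 42.4% and 74.1%. These shares rest on 51.2 and 35.4 estimated counts for Msx3-201 and 32.8 and 88.6 for Msx3-202, with a posterior SD of 10.9 in library 1 and 12.1 in library 2.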
